A study of Rattus norvegicus with 20 samples.

Results

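The genes described here make or receive prostaglandins and leukotrienes, lipid messengers made from arachidonic acid: Ptgs2, Ptgs1, Ptges, Ptges3, Ptgds, Hpgds, Alox5, Alox5ap, Ptger2 and Ptger4. They were chosen by name from the pathway, with earlier results of these data known. Each gene was read at the probe set that carries this gene alone and, where there were several, had the highest mean over the 20 arrays. These are 10 of the 17245 genes with such a probe set on the array. Total RNA of the left dentate gyrus, the hippocampal region whose granule cells receive the input from the entorhinal cortex, was taken from adult male Sprague-Dawley rats and hybridised to Affymetrix Rat Gene 1.1 ST microarrays (1 rat per microarray). Stimulated rats had received an electrical stimulation of the amygdala that evoked status epilepticus, a long self-sustained seizure that was ended with diazepam, and the model is used because spontaneous seizures follow. Sham-operated rats carried the same electrodes and received no current. Each treatment was sampled at 7 d and at 30 d with separate rats, 5 in each of the 4 groups, so that every time point had its own controls.

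In the pathway, phospholipases release arachidonic acid from membranes, and the cyclooxygenases, encoded by Ptgs1 and Ptgs2, turn it into prostaglandin H2. Terminal synthases then make prostaglandin E2 (Ptges, Ptges3), prostaglandin D2 (Ptgds, Hpgds) or thromboxane, while 5-lipoxygenase (Alox5) with its helper protein (Alox5ap) opens the leukotriene branch. In the brain, Ptgs2 is known as an enzyme of excitatory neurons that is induced by synaptic activity, Ptgs1 and Hpgds are known from microglia, Alox5ap from microglia and other macrophages, and Ptgds from oligodendrocytes, the leptomeninges and the choroid plexus.

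Values are log2 intensities after robust multi-array averaging (RMA), so that a difference of 1 is a doubling, and they are comparable between rats for 1 gene but not between genes. A background level of 3.69, the 20th percentile of all values in the table, stood for the signal of unexpressed genes. A value above this level does not by itself show that a gene is expressed. A gene was said to have risen or fallen where limma's moderated test, adjusted by the Benjamini-Hochberg method over all 15800 probe sets tested, gave an adjusted p under 0.05. These p-values measure the spread between the rats of this experiment. All 10 genes passed the filter on low values and none was at or below the background level on any array, but the lowest value of Hpgds lay only 0.03 above it, that of Alox5 0.27 and that of Ptger4 0.28.

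The arrays correlated with each other at r = 0.971 to 0.998. Prox1, the transcription factor that marks granule cells, was between 9.35 and 9.82 on all 20 arrays. The array of rat 5 among the stimulated rats at 7 d stood apart, with a median r to all other arrays of 0.982 against 0.988 or more for the rest. It and the array of rat 5 among the stimulated rats at 30 d had the highest values of Ttr, a choroid plexus gene, at 6.62 and 6.64, and 3 arrays had the highest values of Wfs1, a gene of neighbouring CA1 neurons. Values without these arrays are also given for Ptgs2, Ptgs1, Hpgds, Ptgds, Alox5ap, Ltc4s, Tbxas1 and Cmklr1.

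Ptgs2 rose at both time points and was the 1 gene of the 10 to do so. At 7 d, Ptgs2 (probe set 10764551) stood at 8.06, 8.49, 8.16, 8.31 and 7.84 in sham-operated rats 1 to 5 and at 8.60, 8.70, 8.72, 8.72 and 9.17 in stimulated rats 1 to 5. The groups did not overlap, 4 of the 5 stimulated rats lay close together, and rat 5 was the highest. The means were 8.17 ± 0.25 and 8.78 ± 0.22 (SD, n = 5), a change of 0.61 (SE 0.14, 95% interval 0.33 to 0.90), or 1.53-fold, with a limma adjusted p of 0.00800. In tissue such as this, more cells of a type and more RNA per cell cannot be told apart, nor can fewer cells and less RNA per cell.

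At 30 d, Ptgs2 stood at 8.12, 7.96, 8.02, 8.03 and 8.18 in sham-operated rats 1 to 5 and at 8.84, 8.66, 8.59, 8.32 and 9.25 in stimulated rats 1 to 5. The sham-operated rats were tightly grouped, the stimulated rats were spread more widely, and again no stimulated rat was as low as any sham-operated rat. The means were 8.06 ± 0.09 and 8.73 ± 0.34 (SD, n = 5), a change of 0.67 (SE 0.14, 95% interval 0.39 to 0.96), or 1.59-fold, with a limma adjusted p of 0.0124. Full separation with the stimulated rats on top was found for 3.81% of the 15800 probe sets at 7 d, for 1.84% at 30 d and for 0.899% at both times. The rise at 30 d exceeded that at 7 d by 0.06 (95% interval -0.35 to 0.46, unadjusted p = 0.769 in limma), which was within the error, and the sham-operated groups of both ages differed by -0.11 (adjusted p = 0.774). In the order of the 4 group means, both sham-operated groups came first and both stimulated groups last, and only the gap of 0.56 between these pairs was larger than the spread within the groups.

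The highest Ptgs2 values came from rat 5 of each stimulated group, the same animals whose arrays were highest in Ttr. Without rat 5 of the 7 d group the change at 7 d was 0.52 with an adjusted p of 0.0302, and without rat 5 of the 30 d group the change at 30 d was 0.54 with an adjusted p of 0.0318. Ptgs2 therefore passed the threshold at each time without the rat that stood highest. Without the 3 arrays highest in Wfs1, sham-operated rat 2 and stimulated rats 4 and 5 of the 30 d groups, the change at 30 d was 0.61 (adjusted p = 0.0273).

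**Figure D1:**
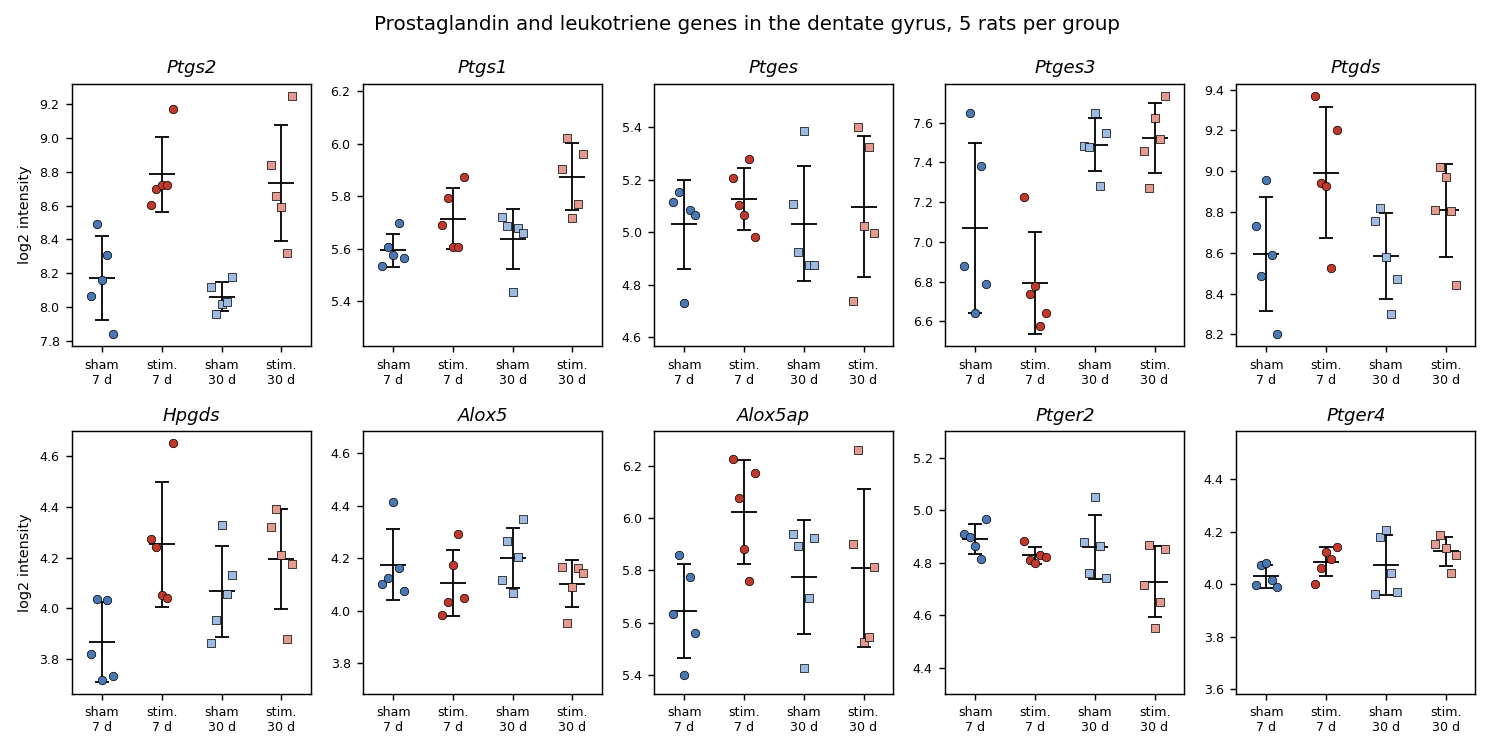
Log2 intensity of the 10 genes, 1 panel for each gene with its own axis range, in sham-operated (blue) and stimulated (red) rats at 7 d (circles) and 30 d (squares). Points are rats, and lines with bars are the mean ± SD of 5 rats. Only Ptgs2 has every stimulated rat above every sham-operated rat at both times.

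Ptgs1, the constitutive cyclooxygenase, differed less between the groups. Ptgs1 (probe set 10835817) was 5.53, 5.61, 5.57, 5.70 and 5.56 in sham-operated rats 1 to 5 at 7 d and 5.69, 5.79, 5.61, 5.61 and 5.87 in stimulated rats 1 to 5. At 30 d it was 5.72, 5.69, 5.44, 5.68 and 5.66 in sham-operated rats and 5.90, 6.02, 5.72, 5.77 and 5.96 in stimulated rats. At both times all 5 stimulated rats lay above the mean of their sham-operated group, but the groups overlapped at 7 d and touched at 30 d, where 4 of the 5 stimulated rats were above the highest sham-operated rat. The difference was 0.12 at 7 d (SE 0.07, 95% interval -0.02 to 0.26, adjusted p = 0.372 in limma) and 0.24 at 30 d (SE 0.07, 95% interval 0.10 to 0.38, adjusted p = 0.0862), so Ptgs1 passed the threshold at neither time. Left without stimulated rat 3 of the 30 d group, it passed at 30 d with an adjusted p of 0.0464. Without both arrays highest in Ttr its differences were 0.08 at 7 d (adjusted p = 0.670) and 0.22 at 30 d (adjusted p = 0.137), and without the 3 arrays highest in Wfs1 that at 30 d was 0.26 (adjusted p = 0.196).

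The promoters of both cyclooxygenase genes are shown because the enzymes carry out the same reaction and differed in how much their probe sets changed. They are the 250 bases before the annotated start in RefSeq (GRCr8), 5′ to 3′, of Ptgs2 at chr13:64713813-64714062 and Ptgs1 at chr3:39981169-39981418, both on the plus strand. Capitals mark matches to the searched motifs: in Ptgs2 a C/EBP site (TTNNGCAA, bases 140 to 133 before the start) and an E-box (CACGTG, bases 55 to 50), and in Ptgs1 a site of PU.1 (GAGGAAGT, bases 102 to 95), a transcription factor of macrophages and microglia.
Ptgs2: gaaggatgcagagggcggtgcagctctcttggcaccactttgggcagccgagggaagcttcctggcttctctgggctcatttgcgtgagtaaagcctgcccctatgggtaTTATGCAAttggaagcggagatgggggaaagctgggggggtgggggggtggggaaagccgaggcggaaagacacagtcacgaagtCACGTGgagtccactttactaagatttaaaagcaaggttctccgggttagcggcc
Ptgs1: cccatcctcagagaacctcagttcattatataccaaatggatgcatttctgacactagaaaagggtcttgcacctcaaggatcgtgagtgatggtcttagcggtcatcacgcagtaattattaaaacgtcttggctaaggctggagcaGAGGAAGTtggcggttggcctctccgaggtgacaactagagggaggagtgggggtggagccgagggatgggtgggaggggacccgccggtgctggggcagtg
Of 33469 promoters of the same length, 9.22% held the C/EBP letters, 5.59% the E-box and 2.04% the PU.1 letters on either strand. The searched CRE half-site (TGACG, 18.2% of promoters) and TATA box (TATAAA, 12.9%) were in neither window. Among the other 6 matched genes, Ptges held the C/EBP letters, Ptges3 the CRE half-site and Ptger4 the PU.1 letters. A match describes the letters only.

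The synthases of prostaglandin E2 did not pass the threshold at either time. Ptges, the inducible microsomal synthase, had group means of 5.03 to 5.13, and stimulated minus sham-operated differences of 0.10 at 7 d (95% interval -0.14 to 0.34, adjusted p = 0.732 in limma) and 0.06 at 30 d (95% interval -0.18 to 0.30, adjusted p = 0.911). Ptges3, the cytosolic synthase that is also the Hsp90 co-chaperone p23, differed by -0.28 at 7 d (95% interval -0.60 to 0.04, adjusted p = 0.352). At 30 d its difference was 0.03 (adjusted p = 0.971). Its sham-operated rats at 7 d were the most scattered of any group here, from 6.64 to 7.65, and overlapped the stimulated rats, which ran from 6.57 to 7.23. The largest difference between the sham-operated groups among the 10 genes was also that of Ptges3, which was higher by 0.42 at 30 d (unadjusted p = 0.0124, adjusted p = 0.341 in limma). None of the 10 genes passed the adjusted threshold between the sham-operated groups, where 0% of all probe sets did and 13.3% had an unadjusted p under 0.05.

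Hpgds, the prostaglandin D2 synthase of haematopoietic cells, rose at 7 d. Hpgds (probe set 10862842) was 3.82, 4.04, 3.72, 4.03 and 3.73 in sham-operated rats 1 to 5 and 4.27, 4.24, 4.05, 4.04 and 4.65 in stimulated rats 1 to 5. The groups did not overlap, but the lowest stimulated rat and the highest sham-operated rat both stood at 4.04, and stimulated rat 5 was the highest. The change was 0.38 (SE 0.11, 95% interval 0.15 to 0.62), or 1.31-fold, with a limma adjusted p of 0.0451. Without stimulated rat 5, the array that stood apart, the change was 0.28 and the adjusted p 0.151, and the call was lost in 19 of the 33 other settings tried.

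By 30 d the Hpgds values overlapped, at 3.86, 3.95, 4.33, 4.06 and 4.13 in sham-operated rats 1 to 5 and 4.32, 4.39, 4.21, 3.88 and 4.17 in stimulated rats 1 to 5. The difference was 0.13 (SE 0.11, adjusted p = 0.762 in limma), and 0.21 without the 3 arrays highest in Wfs1 (adjusted p = 0.642). The change at 30 d minus that at 7 d was -0.26 (unadjusted p = 0.126), and no difference between the times was detected. Its sham-operated group was lower at 7 d than at 30 d by 0.20, a gap just over the larger SD of 0.18.

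Ptgds, the lipocalin-type prostaglandin D2 synthase and a major secreted protein of the cerebrospinal fluid, varied widely within each group. At 7 d, Ptgds (probe set 10843460) was 8.73, 8.49, 8.96, 8.59 and 8.20 in sham-operated rats 1 to 5 and 9.37, 8.94, 8.93, 8.52 and 9.20 in stimulated rats 1 to 5. The groups overlapped: stimulated rats 1 and 5 were above the highest sham-operated rat, and rats 2, 3 and 4 were within the sham-operated range. The difference of 0.40 (SE 0.15, 95% interval 0.09 to 0.71) had an unadjusted p of 0.0136 and an adjusted p of 0.125 in limma. It passed the threshold without sham-operated rat 3 (adjusted p = 0.0498) or without stimulated rat 4 (adjusted p = 0.0296). At 30 d the difference was 0.22 (adjusted p = 0.628). Without both arrays highest in Ttr, the choroid plexus gene, the Ptgds difference was 0.35 at 7 d (adjusted p = 0.235) and 0.32 at 30 d (adjusted p = 0.425). Without the 3 arrays highest in Wfs1 it was 0.41 at 30 d (adjusted p = 0.386). Of the markers of cells that make Ptgds, 0 of 5 tested oligodendrocyte genes, 0 of 7 meningeal and fibroblast genes and 0 of 4 choroid plexus genes passed the threshold at either time. All 7 meningeal and fibroblast genes were nevertheless higher after stimulation at both times, with median differences of 0.15 and 0.17. Of them, 2 at 7 d and 3 at 30 d had an unadjusted limma p under 0.05. Dcn was among these at both times and was also listed for CA1 neurons. The mean of the meningeal and fibroblast list overlapped between the 7 d groups, from 5.60 to 5.90 (sham-operated) and from 5.74 to 6.17 (stimulated). The 30 d groups were fully apart in this mean, from 5.69 to 5.89 (sham-operated) and from 6.01 to 6.16 (stimulated). The part of the meningeal list in the Ptgds values was not tested.

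In the leukotriene branch, Alox5ap, the membrane protein that presents arachidonic acid to 5-lipoxygenase, was higher in most stimulated rats at 7 d. Alox5ap (probe set 10759999) was 5.63, 5.86, 5.40, 5.78 and 5.56 in sham-operated rats 1 to 5 and 6.23, 6.08, 5.88, 5.76 and 6.17 in stimulated rats 1 to 5, and stimulated rat 4 was the only one inside the sham-operated range. The difference of 0.38 (SE 0.13, 95% interval 0.11 to 0.65) had an unadjusted p of 0.00845 and an adjusted p of 0.0916 in limma. At 30 d the groups were intermixed, between 5.43 and 5.94 in sham-operated and between 5.53 and 6.26 in stimulated rats, and the difference was 0.03 (adjusted p = 0.964). Without both arrays highest in Ttr the difference at 7 d was 0.34 (adjusted p = 0.222), and without those highest in Wfs1 the difference at 30 d was 0.15 (adjusted p = 0.850). The change at 30 d minus that at 7 d was -0.34 (95% interval -0.72 to 0.04, unadjusted p = 0.0758). Alox5, the lipoxygenase itself, was near the background in every group, with values of 3.95 to 4.41, and differed by -0.07 at 7 d (adjusted p = 0.682) and -0.10 at 30 d (adjusted p = 0.691).

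The receptors for prostaglandin E2 that raise cyclic AMP, EP2 (Ptger2) and EP4 (Ptger4), did not pass the threshold at either time. Ptger2 had a second probe set with values identical to the first on every array, which was not counted again. Ptger2 differed by -0.06 at 7 d (95% interval -0.19 to 0.07, adjusted p = 0.678 in limma). At 30 d it was 4.88, 4.76, 5.05, 4.86 and 4.74 in sham-operated rats 1 to 5 and 4.72, 4.87, 4.55, 4.65 and 4.85 in stimulated rats 1 to 5, a difference of -0.13 with an unadjusted p of 0.0486 and an adjusted p of 0.435. The groups overlapped. Ptger4 lay between 3.96 and 4.21 in all 20 rats and differed by 0.05 at either time (adjusted p = 0.648 and 0.799).

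Since the 10 genes were chosen with earlier results of these data known, their counts do not test whether the pathway changed more than other genes. This limit also holds for the other lists of genes described here. Counted together, 2 of the 10 genes rose at 7 d (Ptgs2 and Hpgds) and 0 fell, beside 4.02% of all 15800 probe sets that rose and 2.46% that fell. At 30 d, 1 of the 10 rose (Ptgs2) and 0 fell, beside 0.835% and 0.899%. With an unadjusted p under 0.05, 4 of the 10 were higher and 0 lower at 7 d, where 10.1% and 8.37% of all probe sets were, and 2 were higher and 1 lower at 30 d, where the shares were 5.42% and 5.96%. The median difference of the 10 genes was 0.11 at 7 d and 0.06 at 30 d, and that of all probe sets 0.0018 and -0.0064. Between the times, 0 of the 10 changes differed by limma's adjusted p, and 0 at an unadjusted p under 0.05, which 4.32% of all probe sets reached. When the 4 group means of each gene were put in order, neighbouring means differed by less than the larger SD in all cases but 3: Ptgs2 between its sham-operated and stimulated pairs, Ptgs1 between stimulated rats at 7 d and at 30 d (0.16 against an SD of 0.13) and Hpgds between the sham-operated groups.

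**Figure D2:**
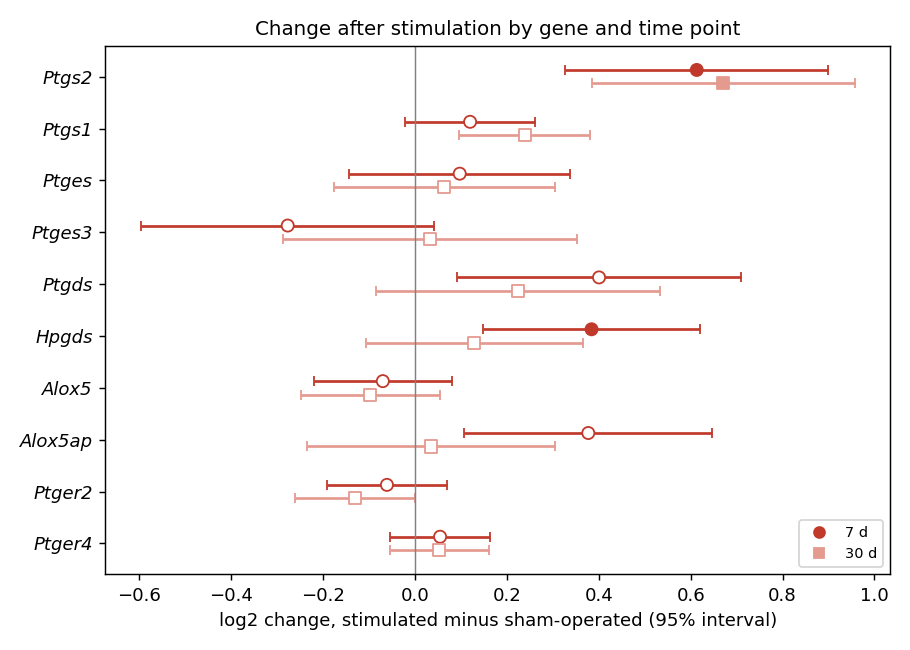
Difference between stimulated and sham-operated rats (log2, mean with 95% interval) for the 10 genes at 7 d (circles) and 30 d (squares). Filled symbols passed the adjusted threshold: Ptgs2 at both times and Hpgds at 7 d.

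The enzymes known from microglia were then set against Ptgs2 within each array, by subtracting its log2 value from theirs in every rat and comparing stimulated with sham-operated rats by a two-sided exact permutation test over all 252 splits of 5 against 5 rats. The smallest p this design allows is 0.00794, and p-values were adjusted over the 6 comparisons. A negative value means that the log2 intensity of the enzyme's probe set changed less than that of Ptgs2. The rise of Ptgs2, 0.61 at 7 d and 0.67 at 30 d, enters all of these values. A gene that did not change would therefore give a negative value, and these tests are not separate from those of Ptgs2 itself. Log2 differences are compressed near the background level. All sham-operated Hpgds values at 7 d were at 4.04 or lower against a background of 3.69, while the lowest Ptgs2 value was 7.84. The values for Hpgds therefore compare intensities and do not show that its transcript changed less. The lowest values of Ptgs1 and Alox5ap, 5.44 and 5.40, were also below that of Ptgs2. How far compression enters their values was not tested, so these too compare intensities only.

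For Ptgs1 the difference from Ptgs2 was -0.49 at 7 d (exact p = 0.00794, adjusted 0.0238), where all 5 stimulated rats lay below all sham-operated rats, and -0.43 at 30 d (exact p = 0.0159, adjusted 0.0239), where the groups overlapped. For Hpgds it was -0.23 at 7 d (exact p = 0.0397, adjusted 0.0476) and -0.54 at 30 d (exact p = 0.00794, adjusted 0.0238), with full separation of the rats at 30 d. For Alox5ap it was -0.24 at 7 d (exact p = 0.143, adjusted 0.143), which did not pass, and -0.64 at 30 d (exact p = 0.0159, adjusted 0.0239). Without stimulated rat 5 of the 7 d group the value for Hpgds at 7 d was -0.23 with an adjusted p of 0.0762, above the threshold. The values of Ptgs1 and Alox5ap at 30 d also lost the threshold, at an adjusted p of 0.0571, when sham-operated rat 1, 2 or 4 of that time was left out.

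**Figure D3:**
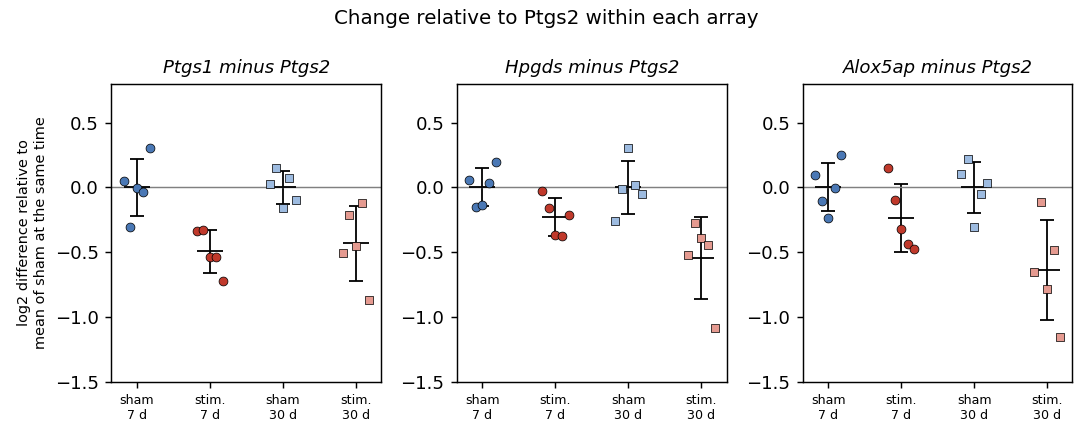
Log2 value of Ptgs1, Hpgds and Alox5ap minus that of Ptgs2 in each rat, set to 0 at the mean of the sham-operated rats of the same time. Points are rats, and lines with bars are the mean ± SD of 5 rats. At 30 d the stimulated rats average -0.43, -0.54 and -0.64 in the 3 panels.

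Across the 20 arrays, after the mean of each group was removed, Ptgs1 varied with Alox5ap at r = 0.808, Ptgs2 with Hpgds at r = 0.542 and Ptgs2 with Ptgs1 at r = 0.514. These values describe arrays that share tissue composition and normalization. The genes most like Ptgs2 over all 20 arrays were Lox (r = 0.927), Necab3 (0.924), Acvr1c (0.913), Tmem176a (0.9) and Nptx2 (0.899), out of 14585 genes. With the group means removed they were Acvr1c (r = 0.862), Lrrc1 (0.829), Nedd9 (0.822), Pros1 (0.816) and Stc2 (0.815). Acvr1c, the type I activin receptor ALK7, was the only one in both lists. For Ptgs1 they were Gpx1 (r = 0.875), Galc (0.852), Vim (0.841), Fuca1 (0.84) and Chi3l1 (0.836) in the values as they are, and Ctsd (r = 0.871), Soat1 (0.844), Tmem86a (0.832), Slc44a2 (0.828) and Anxa2 (0.827) with the group means removed. No gene was shared by the Ptgs2 and the Ptgs1 lists, which hold only the genes with the highest r out of 14585. How often such short lists of other genes share none was not tested, so this does not set Ptgs2 and Ptgs1 apart. Ptgs2 and Ptgs1 themselves correlated at r = 0.675 in the values as they are and at r = 0.514 with the group means removed.

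Among 55 further genes of eicosanoid supply, synthesis, transport, breakdown and reception, 52 had a probe set of their own and 44 passed the filter. At 7 d 3 of the 44 rose (Ltc4s, Tbxas1 and Cmklr1) and 0 fell, beside 4.02% and 2.46% of all probe sets. At an unadjusted p under 0.05, 8 were higher and 1 lower, beside 10.1% and 8.37%. At 30 d 0 of the 44 passed the adjusted limma threshold in either direction, which 0.835% of all probe sets passed upward and 0.899% downward. At an unadjusted p under 0.05, 9 were higher and 0 lower, beside 5.42% and 5.96%. Their median difference was 0.05 at 7 d and 0.0035 at 30 d.

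Ltc4s encodes leukotriene C4 synthase, which joins glutathione to leukotriene A4. It stood at 5.20, 5.25, 5.43, 5.29 and 5.14 in sham-operated rats 1 to 5 at 7 d and at 5.78, 5.66, 5.54, 5.76 and 5.91 in stimulated rats 1 to 5. The groups were fully apart, and the change was 0.47 (SE 0.07) with a limma adjusted p of 0.000386. At 30 d it was 5.17, 5.19, 4.99, 5.04 and 5.30 in sham-operated and 5.49, 5.32, 5.32, 5.46 and 5.37 in stimulated rats. The groups were apart again by a narrower margin, with a difference of 0.25 and an adjusted p of 0.0787. The difference between the times was -0.22 (unadjusted p = 0.0444 in limma) and did not pass the adjusted threshold.

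Tbxas1, thromboxane A synthase of platelets and macrophages, was 4.12, 4.24, 4.30, 4.20 and 4.03 in sham-operated rats 1 to 5 at 7 d and 4.49, 4.53, 4.66, 4.32 and 4.95 in stimulated rats 1 to 5, without overlap. The change was 0.41 (SE 0.09, adjusted p = 0.00934 in limma), at values near the background level, the lowest of them 0.35 above. At 30 d it was 4.22, 4.24, 4.23, 4.12 and 4.21 in sham-operated and 4.61, 4.81, 4.39, 4.36 and 4.42 in stimulated rats, also without overlap, a difference of 0.32 with an adjusted p of 0.105. Without rat 5 of the stimulated 7 d group, whose array stood apart, both Ltc4s (adjusted p = 0.0473) and Tbxas1 (adjusted p = 0.0337) passed at 30 d, and their changes at 7 d were 0.42 (adjusted p = 0.00136) and 0.32 (adjusted p = 0.0286). Without both arrays highest in Ttr, Tbxas1 passed at 30 d (adjusted p = 0.0401) and Ltc4s did not (adjusted p = 0.0791). Without those highest in Wfs1 neither did (adjusted p = 0.101 for Tbxas1 and 0.268 for Ltc4s).

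Cmklr1, the chemerin receptor that also binds resolvin E1, was 5.51, 5.37, 5.61, 5.39 and 5.55 in sham-operated rats 1 to 5 at 7 d and 5.95, 6.06, 6.12, 5.60 and 6.47 in stimulated rats 1 to 5, with stimulated rat 4 inside the sham-operated range. The change was 0.55 (SE 0.13, adjusted p = 0.00974 in limma), and the difference at 30 d was 0.36 (adjusted p = 0.201). Without both arrays highest in Ttr the change at 7 d was 0.44 (adjusted p = 0.0380), and without those highest in Wfs1 the difference at 30 d was 0.47 (adjusted p = 0.167).

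Pla2g4a, the cytosolic phospholipase A2 that releases arachidonic acid, is the neighbour of Ptgs2 on chromosome 13 of the GRCr8 annotation, with 0 protein-coding genes between them. Its difference was 0.32 at 7 d (adjusted p = 0.0720 in limma). At 30 d the difference was 0.38 (adjusted p = 0.0632), and 4 of the 5 stimulated rats were above the highest sham-operated rat, with rat 4 lowest at 5.25. Pla2g2d, a secreted phospholipase, differed by 0.18 at 7 d (adjusted p = 0.0977) and 0.20 at 30 d (adjusted p = 0.134). Abcc4, a prostaglandin exporter, differed by 0.26 at 7 d (adjusted p = 0.0669) and 0.18 at 30 d (adjusted p = 0.377). These 3 genes had an unadjusted p under 0.05 at both times and passed the adjusted threshold at neither.

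**Figure D4:**
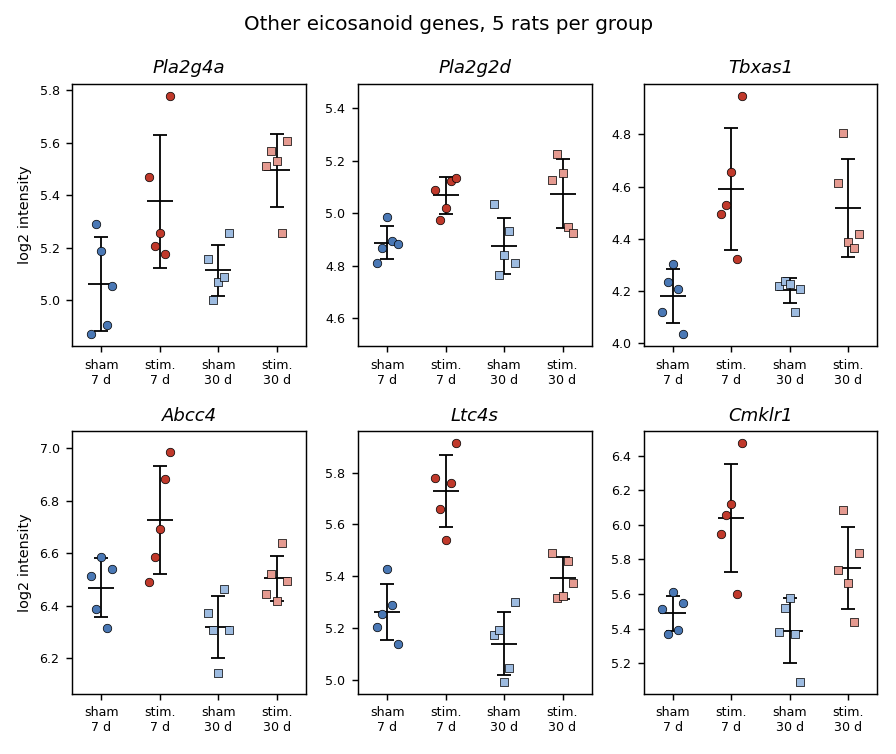
Log2 intensity of 6 other eicosanoid genes in sham-operated (blue) and stimulated (red) rats at 7 d (circles) and 30 d (squares), 1 panel for each gene with its own axis range. Points are rats, and lines with bars are the mean ± SD of 5 rats. Ltc4s and Tbxas1 have every stimulated rat above every sham-operated rat at both times.

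Markers of microglia moved with stimulation: 7 of the 9 tested rose at 7 d (Cx3cr1, Csf1r, P2ry12, Aif1, Itgam, C1qa and Trem2) and 4 at 30 d. Of all probe sets, 4.02% rose and 2.46% fell at 7 d, and 0.835% rose and 0.899% fell at 30 d. The mean log2 level of the microglial markers ran from 6.15 to 6.23 in sham-operated and from 6.76 to 7.55 in stimulated rats at 7 d, and from 6.14 to 6.38 and from 6.42 to 7.30 at 30 d. The highest rat was stimulated rat 5 at 7 d and stimulated rat 2 at 30 d. At 7 d rat 5 was also the highest stimulated rat in Ptgs2, Ptgs1, Hpgds, Ltc4s, Tbxas1 and Cmklr1, and rat 1 was in Alox5ap and Ptgds. At 30 d rat 2 was also the highest in Ptgs1, Hpgds, Alox5ap, Ptgds, Tbxas1 and Cmklr1, while rat 5 was in Ptgs2 and rat 1 in Ltc4s. Of the astrocyte markers, 2 of 5 rose at 7 d and 1 at 30 d. Of 5 tested genes of border macrophages and monocytes, 1 rose at 7 d, Ly86 with a change of 0.94 (adjusted p = 0.00750 in limma), and 0 at 30 d. Mrc1, Cd163, Lyve1 and Ccr2 passed the threshold at neither time. Of 5 genes listed for mast cells, another known source of Hpgds, Cpa3, Cma1 and Mcpt1 were at or below the background level on all 20 arrays, and Tpsab1 (3.99 or more) and Kit (6.81 or more) were above it on all. Kit, which neurons also express, fell at 7 d with a change of -0.46 (adjusted p = 0.00560 in limma), and Tpsab1 differed by 0.05 (adjusted p = 0.649). Of 5 neutrophil genes, S100a8 and Ngp were at or below background on all arrays, and S100a9 (3.71 or more), Mpo (4.14 or more) and Elane (4.08 or more) were above it on all, with 0 of the 3 past the threshold at either time. The part of the microglial, border macrophage, mast cell and neutrophil levels in the values of Hpgds, Alox5ap, Ltc4s, Tbxas1 and Cmklr1 was not tested.

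Ptgs2 is itself known as an activity-induced gene, so 12 immediate early genes of neurons were read beside it. At 7 d 0 rose and 2 fell, Arc with a change of -0.56 (adjusted p = 0.0225 in limma) and Nr4a3 with -0.62 (adjusted p = 0.000202). At 30 d 0 rose and 1 fell, Nr4a3 with -0.47 (adjusted p = 0.00675). By sign alone, 4 of the 12 were higher and 8 lower at 7 d. At 30 d 8 were higher and 4 lower, with a median difference of 0.10. The mean log2 level of the 12 at 30 d was 6.52 in stimulated rat 2. It was 5.57 to 5.76 in the other stimulated rats and 5.70 to 5.79 in sham-operated rats. The relation of neuronal activity, or of these 12 genes, to the Ptgs2 values was not tested. Of 5 tested granule cell markers, 2 fell at 7 d, C1ql3 and Calb1, and 1 at 30 d, C1ql3. Beside both lists, 4.02% of all probe sets rose and 2.46% fell at 7 d, and 0.835% rose and 0.899% fell at 30 d.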

How the data were processed

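The table holds 29214 probe sets on 20 arrays. The authors made the deposited log2 values with RMA in oligo 1.22.0, which corrects background, normalizes by quantiles and summarizes probes. Of the probe sets, 18644 named 1 gene, 962 several and 9608 none, from the platform annotation, and only the first kind was used. Values were raised to the background level of 3.69 (the 20th percentile of all values, in place of the antigenomic probes, which the table does not name) and probe sets at or below it on more than 5 arrays were left out, which kept 15800 of 14586 genes. Levels, ranges, separation and differences within an array use the deposited values. Array medians were 5.22 to 5.31. On each array 79.0 to 80.9% of probe sets were above background, a share that follows from setting it at the 20th percentile. The number of arrays limits the precision. A model of the 4 groups was fitted in limma 3.58.1 (R 4.3.3), with contrasts at 7 d, at 30 d, between them and between sham-operated groups, and tested on simulated data. Groups came from the sample titles, and the labels give no batch or scan.

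The 10 genes were all named. Of the other eicosanoid genes, those past the adjusted threshold at either time or with an unadjusted p under 0.05 at both times in 1 direction were named, and for likeness the 5 genes with the highest Pearson r. Members, lists and tests were chosen with earlier results of these data known. Alternatives changed the filter, the floor, the normalization, the variance model, the arrays in the fit, the probe set rule and the pairing, and left out each rat. Promoter sequences came from a RefSeq table (GRCr8), which matched 8 of the 10 genes (not Hpgds or Alox5ap).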

Additional observations from a re-analysis of the deposited data

Results flagged for a closer look

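Of 64 groups checked (16 genes in 4 groups of 5 rats), 6 held a rat whose gap to the nearest other rat was over 0.71 of the range of its group. Chance alone gives about 1 in 20 groups. Ptgs2 in stimulated rat 5 at 7 d was 9.17, with the next at 8.72, and this rat's array stood apart from the others. Ptgs1 in sham-operated rat 3 at 30 d was 5.44, with the next at 5.66. Sham-operated rat 3 at 7 d was low in Ptges, at 4.73 with the next at 5.07, and high in Alox5, at 4.41 with the next at 4.16. Pla2g4a in stimulated rat 4 at 30 d was 5.25, with the next at 5.51, and Tbxas1 in sham-operated rat 4 at 30 d was 4.12, with the next at 4.21.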

How the results depend on the processing

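Ptgs2 passed the threshold at 7 d under all 34 alternatives (change 0.52 to 0.69) and at 30 d under 33 of 34 (0.54 to 0.77). It missed the adjusted threshold at 30 d with unmoderated variances (adjusted p = 0.05005). The methods used an analysis of variance, and their threshold for target mRNAs was a p under 0.05 with no adjustment stated, so this miss is not one by their criterion. Ltc4s, Tbxas1 and Cmklr1 passed at 7 d under all 34. Hpgds at 7 d had adjusted p-values of 0.0152 to 0.161. The count of the 10 genes called at 7 d went from 2 to 1 with no filter, background at the 30th percentile (7 of the 10 tested), added quantile normalization, centring on the median, unmoderated variances, only the groups compared, and without the 2 arrays highest in Ttr, and ran from 1 to 3 when 1 rat was left out. It was 1 without sham-operated rat 1 or 5 or stimulated rat 1, 2 or 5 of 7 d, or sham-operated rat 2, 4 or 5 or stimulated rat 1, 3 or 5 of 30 d. Alox5ap passed at 7 d with array weights (adjusted p = 0.0417) and without stimulated rat 2 of 30 d (adjusted p = 0.0470). The count at 30 d went from 1 to 0 with unmoderated variances and ran from 1 to 2 with 1 rat left out, and that between sham-operated groups from 0 to 1 with array weights. The other eicosanoid genes called at 7 d went from 3 to 5 with the mean of the probe sets of a gene, and ran from 3 to 5 with 1 rat left out (5 without sham-operated rat 2 or stimulated rat 1 or 4). At 30 d they went from 0 to 5 with array weights, 2 without the arrays highest in Ttr and 1 with only the groups compared, and ran from 0 to 4 (4 without stimulated rat 5 of 7 d, 1 without stimulated rat 4 of 30 d). Removal of the arrays highest in Ttr or Wfs1, and the values raised to the background level, were chosen after seeing the data. The cause of these changes was not tested.

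With 1 rat left out, the change relative to Ptgs2 ran from -0.28 to -0.18 for Hpgds at 7 d (adjusted p up to 0.105, lost in 7 of 13 settings), from -0.33 to -0.17 for Alox5ap at 7 d (passing without stimulated rat 1, adjusted p = 0.0397), and at 30 d from -0.51 to -0.32 for Ptgs1 and from -0.77 to -0.51 for Alox5ap. Differences near 0 at 30 d changed sign: Alox5ap to -0.10 with array weights (-0.0785 to 0.11 with 1 rat left out), Ptges to -0.0064 without the arrays highest in Wfs1 (-0.0124 to 0.15 with 1 rat left out), and Ptges3 to -0.0211 without those highest in Ttr and -0.0409 without those highest in Wfs1 (-0.0211 to 0.10 with 1 rat left out). For the change relative to Ptgs2 the deposited values were the main setting, and raising them to the background level was the alternative, which changed no call.

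The labels do not say whether replicate numbers pair the rats, and the main model used no pairing. Same-numbered rats correlated at r = -0.489 to 0.107 at 7 d, where 0 of 5 correlated best with their own number. At 30 d r was -0.123 to 0.153, and 3 of 5 correlated best with their own number. With 5 pairs at each time these values cannot settle whether the rats were paired. With the replicate block, Hpgds at 7 d had an adjusted p of 0.0704 and Alox5ap one of 0.0171, and the other eicosanoid genes called were 5 at 7 d and 1 at 30 d.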
